A study of Mus musculus with 18 samples.

Results

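The comparison described here is that of DN1 cells from the thymus of mice given an antibody to DLL4 with DN1 cells from mice given an isotype control antibody. Its members were chosen by their labels: 3 DN1 anti-DLL4 arrays and 2 DN1 isotype control arrays, 5 of the 18 arrays of the series. All mice were C57BL/6, received 1 of the antibodies by injection, and were killed 2 weeks later. DN1 cells were sorted as CD4-CD8-CD44+CD25- thymocytes. The same 2 treatments were also measured in all DN cells (CD4-CD8-, 3 anti-DLL4 and 3 isotype arrays) and in total thymocytes (3 anti-DLL4 and 4 isotype arrays). The study's description gives 4 animals for each antibody, and no source used here ties an array to an animal, so that p-values measure the spread between these samples only. By its title, the study addressed the mechanism by which immune cell populations shift on anti-DLL4 treatment.

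DLL4 is a ligand of Notch receptors that thymic epithelial cells show to incoming progenitors. Signalling through Notch1 is needed for these progenitors to enter the T-cell lineage, and in its absence B-lineage cells are known to develop in the thymus. The DN1 gate holds the earliest T-cell progenitors, and it can also hold B-lineage cells, dendritic cells, natural killer (NK) cells and myeloid cells, since CD44 is not particular to progenitors. Pro-B and pre-B cells express the surrogate light chain, in which a VpreB protein and lambda 5 (Igll1) take the place of the light chain in the pre-B-cell receptor.

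Vpreb1 and Igll1, neighbours on chromosome 16, had the largest differences in favour of anti-DLL4 among the 5 genes set as markers of this comparison, so the 250 bases before their start sites are shown. They were taken from RefSeq on GRCm38.p6, 5′ to 3′ on the gene's strand. The Vpreb1 window is chr16:16869256-16869505 and the Igll1 window chr16:16863986-16864235, both on the minus strand. Capitals mark each match to CAGGTG, the E-box that E proteins of early lymphocytes can bind, or to its reverse complement CACCTG.
Vpreb1: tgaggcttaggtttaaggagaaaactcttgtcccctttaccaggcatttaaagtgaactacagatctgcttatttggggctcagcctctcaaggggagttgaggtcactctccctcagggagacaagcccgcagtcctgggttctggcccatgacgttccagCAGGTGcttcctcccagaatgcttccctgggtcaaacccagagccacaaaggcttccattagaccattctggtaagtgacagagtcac
Igll1: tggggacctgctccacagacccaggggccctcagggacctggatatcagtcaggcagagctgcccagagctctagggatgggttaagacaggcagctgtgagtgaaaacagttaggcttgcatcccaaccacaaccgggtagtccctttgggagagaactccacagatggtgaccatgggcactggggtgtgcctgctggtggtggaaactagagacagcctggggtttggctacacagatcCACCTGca

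Each of these windows holds 1 match, beginning 88 bases before the start of Vpreb1 and 8 bases before that of Igll1. The window of Vpreb2 holds 1 match as well, and that of Vpreb3 none. The motif was searched on both strands, and 17.2% of the 32817 promoter windows of the same length hold it. These matches describe letters only.

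For 3 of the genes below, 1 of several probes is shown, to let a reader place it. It is not the brightest probe, which gives the levels below. Its 60 bases are given in the orientation of the probe, with coordinates of mm8, the build of the scanner files. The Igll1 probe lies at chr16:16774574-16774633, the Vpreb3 probe at chr10:75393118-75393177, and the Cd247 probe at chr1:167693111-167694129. The last spans 1019 bases of the genome and so crosses at least 1 intron. These probes differed by 6.13, 5.68 and -1.89 on the log2 scale, against 6.13, 5.38 and -3.08 for the brightest probes of Igll1, Vpreb3 and Cd247.
Igll1: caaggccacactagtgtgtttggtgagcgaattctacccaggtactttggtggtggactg
Vpreb3: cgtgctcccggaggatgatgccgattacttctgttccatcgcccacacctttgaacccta
Cd247: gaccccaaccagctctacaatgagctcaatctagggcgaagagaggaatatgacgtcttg

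Levels are log2 processed signals minus the 75th percentile of their array, so that 0 is the signal that 75% of the spots do not exceed, and differences are anti-DLL4 minus isotype, given relative to the median gene tested, which lay at -0.01. Between 74.9% and 80.2% of spots were well above background on the anti-DLL4 arrays, and 74.6% and 84% on the isotype arrays. Pearson's r between DN1 arrays, across genes, was 0.86 to 0.92 among the anti-DLL4 arrays, 0.91 for the isotype pair and 0.83 to 0.93 between the groups. The median SD of a gene was 0.825 log2 units over the 3 anti-DLL4 arrays and 0.436 over the 2 isotype arrays. The small number of arrays limits the precision of every value.

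The sort was compared with the RNA of its own gating genes. Cd44 was well above background on all 5 arrays, with 1.59, 2.22 and 2.34 in anti-DLL4 samples and 3.07 and 2.40 in isotype samples. Il2ra, which encodes CD25, was at 0.32, 0.02 and 0.49 in anti-DLL4 samples and at -2.60 and -0.30 in isotype samples, on the same probe whose isotype levels in DN cells were 0.20 to 1.97. Cd8b1, which encodes a chain of CD8, was well above background in cells sorted as CD8-negative, at 4.96, 2.05 and 1.59 in anti-DLL4 DN1 samples and 6.35 and 6.59 in isotype DN1 samples. In isotype thymocytes, most of which carry CD8, the same probe read 7.65 to 9.95. Cd8a lay at 2.71, 0.21 and -1.58 in anti-DLL4 samples, against 3.60 and 4.59 in isotype samples. RNA of CD8 genes was thus present in both groups and lower on each anti-DLL4 array than on either isotype array, and its part in the T-lineage results below was not tested. In bulk samples such as these, fewer cells of a type and less RNA per cell cannot be told apart.

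The genes with the largest difference in favour of anti-DLL4 among the markers were those of the surrogate light chain. Vpreb1 read 7.17, 3.70 and 6.55 on the anti-DLL4 arrays, against -1.15 and -0.20 on the isotype arrays. All 3 anti-DLL4 arrays lay above both isotype arrays, with replicate 2 the lowest of the 3. The difference was 6.49 ± 1.21 (SE), a fold of 89.6, and did not pass the threshold (limma adjusted p = 0.0549).

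Igll1, the lambda 5 chain that pairs with VpreB, had levels of 6.67, 2.44 and 6.16 in anti-DLL4 samples and -1.08 and -0.97 in isotype samples. The groups again did not overlap and replicate 2 was again the lowest anti-DLL4 array. The difference of 6.13 ± 1.68 (SE) had an adjusted p of 0.345 in limma.

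Vpreb3, a VpreB-like protein of B-lineage cells, was at 7.84, 5.49 and 7.30 in anti-DLL4 samples, against 2.01 and 1.00 in isotype samples, a difference of 5.38 ± 1.16 (SE, limma adjusted p = 0.128). Vpreb2, a close copy of Vpreb1, was at 0.31, -3.25 and 0.32 in anti-DLL4 samples, against -4.33 and -4.59 in isotype samples. Its difference was 3.60 ± 1.17 (SE, limma adjusted p = 0.549). Probes of Vpreb1 and Vpreb2 may each bind RNA of the other, so the 2 genes are not certain to be separate readings. For Vpreb1, Igll1 and Vpreb3, each probe measured differed in the same direction, by 6.31 and 6.49, by 6.13 and 6.13, and by 5.38 to 5.68. Of the 15 alternative settings, Vpreb1 passed the threshold in 3, and its difference ranged from 5.97 to 7.41, with adjusted p-values in limma of 0.0261 to 0.447. The value of 7.41, with the adjusted p of 0.0261, was that without anti-DLL4 replicate 2.

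**Figure D1:**
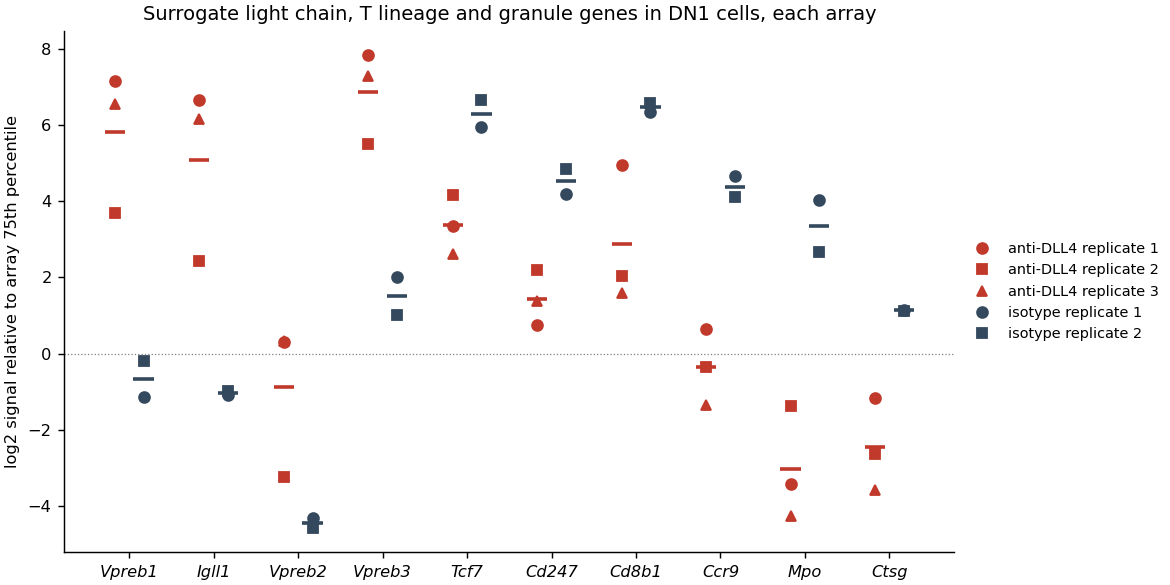
Log2 signal relative to the 75th percentile of each array (vertical axis) for 10 genes in DN1 cells, with 3 anti-DLL4 arrays at the left and 2 isotype arrays at the right of each gene. Each point is 1 array, its shape the replicate number, and each bar the mean of the group. The groups do not overlap for any of the 10 genes; anti-DLL4 replicate 2 is the lowest anti-DLL4 point for Vpreb1, Igll1, Vpreb2 and Vpreb3 and the highest for Tcf7, Cd247 and Mpo.

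Of the 12 genes on the surrogate light chain and B-cell precursor list, none passed the threshold in DN1 cells, while 0.041% of the 21957 genes tested passed it upward. At an unadjusted p under 0.05, 7 of the 12 were higher and none lower, against 2.31% of all genes tested that were higher. The arrays of 7 members did not overlap upward, a pattern that 8.68% of all genes tested showed. The list's median difference was 2.27. The list was chosen with results of these samples known, so its count is a description. Beside the VpreB genes and Igll1, the 7 at an unadjusted p under 0.05 were Irf4, Cd93 and Bst1, of which Cd93 and Bst1 were named after their values were seen. The arrays of Bst1 overlapped between the groups, while those of Bach2, which differed by 2.12, did not. Irf4, a transcription factor of B cells and dendritic cells, was at 6.01, 6.42 and 6.28 in anti-DLL4 samples and 4.54 and 3.87 in isotype samples, a difference of 2.04 (limma adjusted p = 0.528). Cd93, a surface protein of immature B cells that myeloid progenitors also carry, differed by 2.41 and Bst1, a surface enzyme of B-cell precursors and myeloid cells, by 3.01.

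Genes of the recombination machinery on that list had smaller differences, with overlapping groups. Rag1 differed by -0.21. Rag2 read 3.41, -0.54 and 3.21 in anti-DLL4 samples, against 0.14 and 1.38 in isotype samples, so that replicate 2 was again the lowest anti-DLL4 array. Its difference was 1.27 (limma adjusted p = 1) and ranged from 0.60 to 2.43 over the alternative settings. Dntt, the terminal transferase that adds bases at V(D)J junctions in both T and B precursors, differed by -0.98. Il7r, the receptor chain that early T and B progenitors share, differed by -0.36. The mean level over the 12 members was 4.89, 2.67 and 4.80 on the anti-DLL4 arrays, against 1.45 and 1.66 on the isotype arrays.

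Genes of B cells in general differed less. On the B cell list, 1 of 20 members (Ebf1) was higher at an unadjusted p under 0.05, against 2.31% of all genes tested. None passed the threshold and the median difference was 0.66, with a range of -1.01 to 1.83. The arrays of 9 members did not overlap upward, against 8.68% of all genes tested, and none of the 9 differed by more than 1.83. Pax5, the factor of B-lineage commitment, differed by 1.67 and Ebf1, which acts before and with it, by 1.83 in its brightest probe. A second Ebf1 probe went the other way, by -4.95, and the mean of both probes gave -1.56. The list's mean level lay between 4.30 and 4.47 on the anti-DLL4 arrays and at 4.34 and 3.34 on the isotype arrays, so that B-cell RNA was well represented in DN1 cells of control mice too.

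T-lineage genes lay on the other side. Tcf7, the transcription factor TCF-1 that Notch induces at the start of the T-cell programme, was at 3.34, 4.15 and 2.60 in anti-DLL4 samples and 5.96 and 6.65 in isotype samples. The groups did not overlap, and the 2 Tcf7 probes differed by -2.93 and -3.21. The difference of -2.93 ± 0.66 (SE) did not pass the threshold (limma adjusted p = 0.166). Cd247, the zeta chain of the T-cell receptor complex that NK cells also use, read 0.74, 2.19 and 1.38 in anti-DLL4 samples, against 4.20 and 4.86 in isotype samples. Its difference was -3.08 ± 0.66 (SE, limma adjusted p = 0.127), and its 3 probes differed by -0.76 to -3.08.

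On the early T lineage list, 13 of 24 members were lower and none higher at an unadjusted p under 0.05, against 2.37% of all genes tested that were lower. None passed the threshold, which 0.0547% of all genes passed downward. The median difference was -1.97, and the arrays of 17 members did not overlap downward, against 8.94% of all genes. Satb1, a chromatin organiser of thymocytes, differed by -2.48, with 1.85, 3.26 and 1.85 in anti-DLL4 samples and 5.01 and 4.60 in isotype samples. Ptcra, the pre-T-cell receptor alpha chain and a Notch target, differed by -2.88. Signalling genes of the T-cell receptor lay in the same range, with -2.41 for Zap70, -2.67 for Trat1 and -2.05 for Cd3d. Gata3, a factor needed from the first T-cell stages, differed by -2.57, with 1.83, 4.23 and 1.23 in anti-DLL4 samples, against 5.13 and 4.89 in isotype samples. Bcl11b, the factor of T-cell commitment, differed by -1.98 (limma adjusted p = 1). Cd2, Ets1, Lef1, Tcf12 and Runx1 on this list differed less, by -0.35 to 0.41.

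Genes of later thymocyte stages differed in the same direction. Of the 10 genes on the CD4/CD8 stage list, 5 were lower and none higher at an unadjusted p under 0.05, against 2.37% of all genes tested that were lower. None passed the threshold, and the median difference was -1.90. The arrays of 7 members did not overlap downward and those of 1 upward, against 8.94% and 8.68% of all genes. Ccr9, a chemokine receptor of thymocytes and plasmacytoid dendritic cells, read 0.65, -0.36 and -1.36 in anti-DLL4 samples, against 4.66 and 4.10 in isotype samples. Its difference was -4.73 ± 0.98 (SE, limma adjusted p = 0.104), with no overlap. Cd8b1 and Cd8a differed by -3.59 and -3.64, and a second, dimmer Cd8b1 probe by -0.37. Cd4 was at -3.22 to -4.48 in anti-DLL4 samples and -2.95 and -3.97 in isotype samples, with a difference of -0.29. In isotype thymocytes, which include CD4-positive cells, its probe read only -3.34 to -2.43. The low Cd4 level and small difference in DN1 cells therefore say little about Cd4 RNA.

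Myeloid granule genes held the largest difference in favour of isotype among the markers. Mpo, the myeloperoxidase of granulocyte and monocyte progenitors, read -3.42, -1.39 and -4.28 in anti-DLL4 samples, against 4.04 and 2.68 in isotype samples. Its probes differed by -6.38 and -7.93, and the groups did not overlap. The difference of -6.38 ± 1.34 (SE), a fold of 83.1, did not pass the threshold (limma adjusted p = 0.108). Ctsg, another granule protease of the same progenitors, was at -1.18, -2.64 and -3.58 in anti-DLL4 samples and 1.15 and 1.13 in isotype samples, a difference of -3.60 (limma adjusted p = 0.405).

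On the neutrophil and myeloid granule list, 4 of 16 measured members were lower and none higher at an unadjusted p under 0.05, against 2.37% of all genes that were lower, and none passed the threshold. The median difference was -3.16, and the arrays of 3 members did not overlap downward, against 8.94% of all genes. Genes of mature neutrophils on this list varied widely between the 2 isotype arrays: S100a8 was at -3.78, -10.51 and -0.12 in anti-DLL4 samples and 3.47 and -3.24 in isotype samples. The list's mean was -3.52, -4.98 and -3.41 on the anti-DLL4 arrays, against 0.01 and -3.07 on the isotype arrays, so that isotype replicate 1 alone stood far above the rest. Mpo and Ctsg were high on both isotype arrays. Among monocyte and macrophage genes, 5 of 17 were lower and none higher at an unadjusted p under 0.05, against 2.37% of all genes that were lower, with a median of -1.09. The arrays of 8 members did not overlap downward and those of 1 upward, against 8.94% and 8.68% of all genes. They included the complement genes C1qa, with a difference of -2.01, and C1qc, with -2.69, and Timd4, a receptor for dying cells on macrophages, with -5.00. Cpa3, a protease of mast cells that early progenitors also express, differed by -3.57. Of the 10 mast cell and basophil genes it alone was lower at an unadjusted p under 0.05, and 6 lay above the median gene. Cd34 and Nfe2 on the stem and progenitor list differed by -3.44 and -4.27. They were the only 2 of its 18 members lower at that level, against 2.37% of all genes. No member of either list was higher at that level. Kit, the receptor that marks early T-cell progenitors within the gate, was at 0.60 in the mean of the anti-DLL4 samples and 1.50 in that of the isotype samples (difference -0.89, limma adjusted p = 1).

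**Figure D2:**
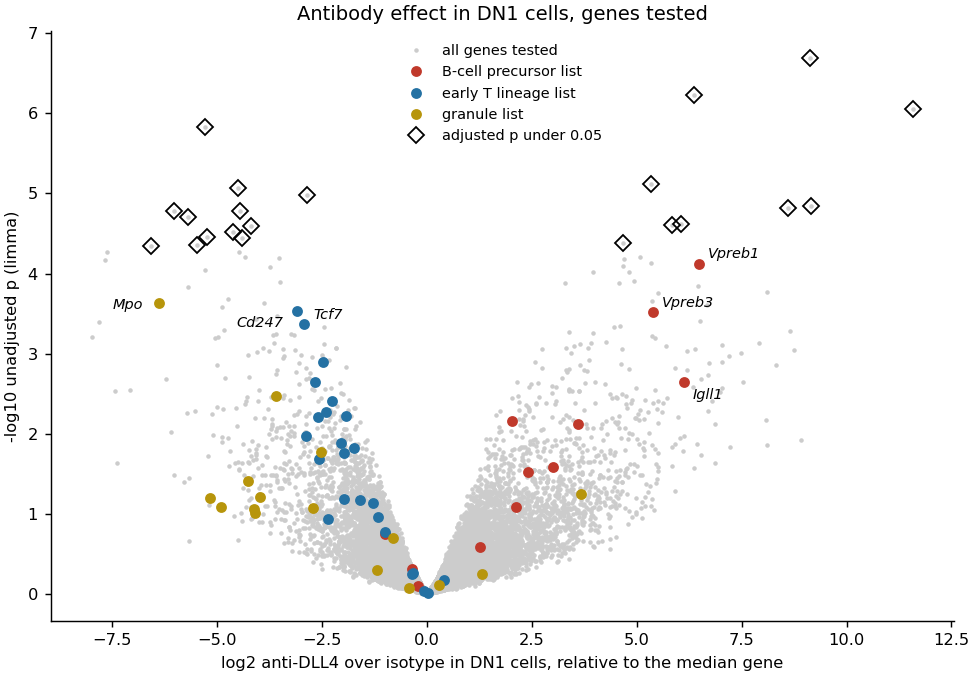
Log2 difference of each gene tested in DN1 cells, anti-DLL4 over isotype (horizontal axis), against -log10 of its unadjusted limma p (vertical axis). Grey points are all 21957 genes, coloured points members of 3 lists, and open diamonds the 21 genes past an adjusted p of 0.05; no coloured point carries a diamond, and Vpreb1 lies closest to them.

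The Notch genes themselves differed less evenly. Of 11 genes on the Notch target list, 2 were higher (Heyl and Il2ra) and 1 lower (Ptcra) at an unadjusted p under 0.05. Of all genes tested, 2.31% were higher and 2.37% lower at that level. The list had a median of -0.73 and none past the threshold. The arrays of 4 members did not overlap downward and those of 3 upward, against 8.94% and 8.68% of all genes. Hes1, the classical Notch target, was at 1.43, 1.47 and 1.94 in anti-DLL4 samples and 1.07 and 1.50 in isotype samples, with overlapping groups and a difference of 0.34. Dtx1, another target, differed by -1.37, Notch1 by -1.41, Notch3 by -0.96 and Nrarp by 0.23. Heyl differed by 4.53 ± 2.01 (SE, limma adjusted p = 0.993). The 18 genes of the Notch receptor, ligand and pathway list had a median of -0.29. At an unadjusted p under 0.05, 1 member was higher and none lower, against 2.31% of all genes tested that were higher. That member was Dll4 itself, at -3.67, -2.18 and -1.93 in anti-DLL4 samples, against -6.60 and -5.32 in isotype samples (difference 3.38, limma adjusted p = 0.373).

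The other lists had smaller median differences than the B-cell precursor, early T lineage, CD4/CD8 stage and granule lists. Cell cycle genes had a median difference of 0.30, with 0 of 23 at an unadjusted p under 0.05, and MHC class II genes of -0.29, with 0 of 10. NK and innate lymphoid genes had a median of -0.69, with 0 of 17, although 16 members lay below the median of all genes and the arrays of 9 did not overlap downward, against 8.94% of all genes. Conventional dendritic cell genes had a median of -0.05 and plasmacytoid dendritic cell genes of -0.97. At an unadjusted p under 0.05, 1 of 16 was higher in the former and 3 of 17 lower in the latter, against 2.31% and 2.37% of all genes tested. Of those 3, Ccr9 is shared with the CD4/CD8 stage list, and the others were Pacsin1 and Lair1. For the lists of gamma-delta and innate-like T cells, regulatory T cells, mast cells and basophils, erythroid cells, thymic epithelium, and fibroblasts and endothelium, the medians ran from -1.11 to 0.79. For type I interferon response, immediate-early and heat-shock genes, the BCL2 family, cytokines and their receptors, E proteins and Id proteins, and homing receptors, they ran from -0.34 to 0.32. The stem and progenitor list had a median of -0.53. Members of these lists at an unadjusted p under 0.05 included Etv5, a factor of gamma-delta T cells, with a difference of -3.75. Others were Ikzf2, the Helios factor of regulatory T cells, with -2.41, and Klf1, an erythroid factor, with 3.17. Pdgfrb, a receptor of fibroblasts and pericytes, differed by -4.003. At that level 2 of 7 gamma-delta and innate-like genes and 3 of 12 fibroblast and endothelium genes were lower, and none higher. Among the 12, 6 lay above the median gene. Of 9 regulatory T-cell genes 1 was lower and 1, Il2ra, higher. Of 9 erythroid genes 1 was higher and none lower. The shares of all genes tested were 2.31% higher and 2.37% lower. No member of any of the 26 lists passed the threshold. Il7 came nearest after Vpreb1, with an adjusted p of 0.0749 in limma. It was not well above background on either isotype array, and was at least 7.76-fold higher in anti-DLL4 samples in the main processing. Over the alternative settings its difference was as small as 0.35.

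**Figure D3:**
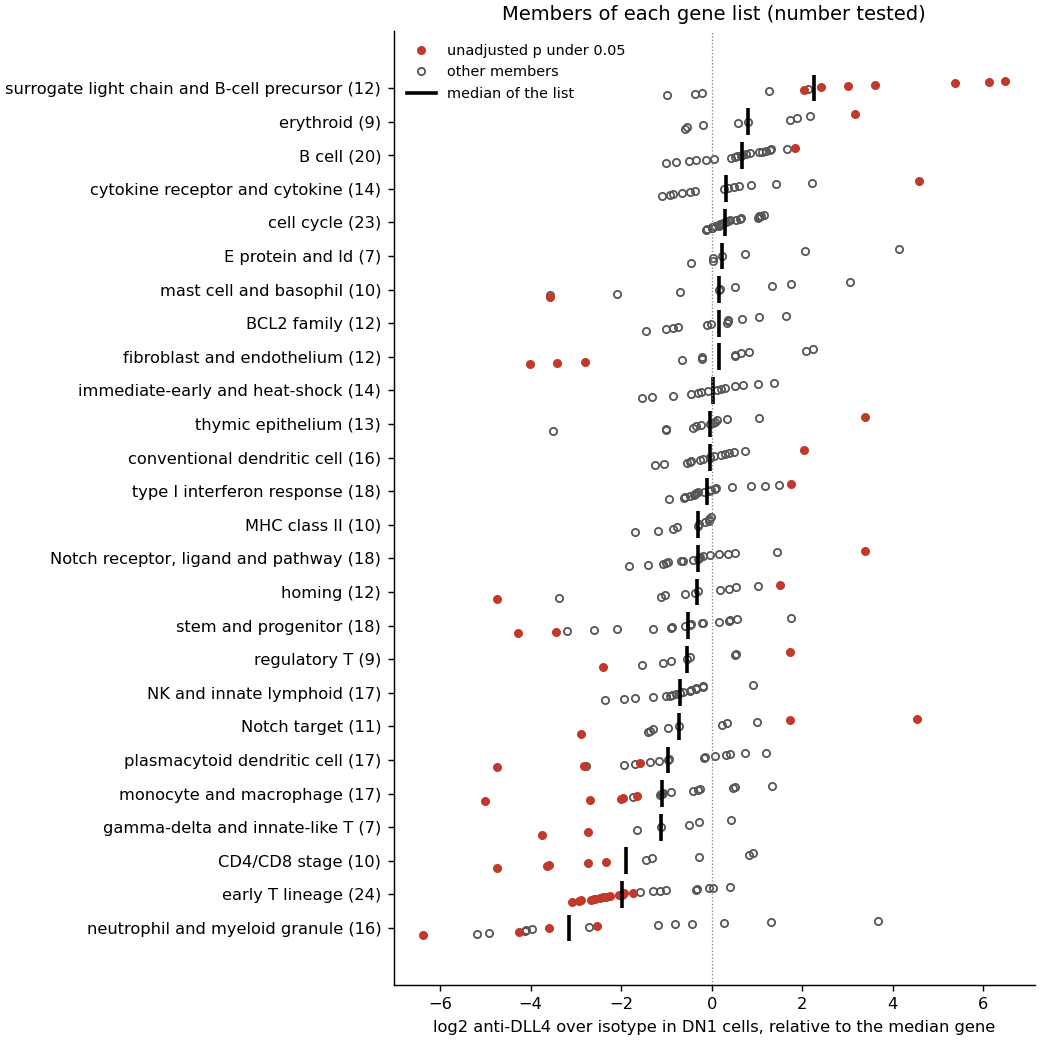
Log2 difference in DN1 cells, anti-DLL4 over isotype, of each measured member of the 26 gene lists (points), with the list's median as a black bar and members at an unadjusted p under 0.05 filled in red. The B-cell precursor list has the highest median (2.27), and the early T lineage (-1.97) and granule lists (-3.16) the lowest.

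Across all genes, 21 passed the threshold, 9 higher and 12 lower, which is 0.0956% of those tested. At an unadjusted p under 0.05 there were 1029, or 4.69%, close to the share that this threshold gives where nothing differs. The genes that rose included Enpep, the aminopeptidase known as BP-1 on early B-lineage cells of the mouse. Enpep was at 2.66, -0.50 and 2.51 in anti-DLL4 samples, against -7.34 and -7.82 in isotype samples, where 1 of the 2 arrays measured it above background (difference 9.15 ± 1.47 (SE), limma adjusted p = 0.0336). Smtnl2, a smoothelin-like protein, had the smallest p, with 2.72, 0.80 and 3.45 in anti-DLL4 samples and -6.86 and -6.74 in isotype samples (difference 9.14 ± 1.03 (SE), limma adjusted p = 0.00447). In both genes the anti-DLL4 arrays stood far above the isotype arrays, and replicate 2 was the lowest of the 3, as for the surrogate light chain.

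Sertad4 read 2.42, -0.22 and 2.35 in anti-DLL4 samples, and its brightest probe was not well above background on either isotype array. By that probe and the main processing it was at least 630.0-fold higher in anti-DLL4 samples (limma adjusted p = 0.00638). Its second probe differed by less, 6.15, and over the alternative settings the gene's difference ranged from 4.76 to 12.32. Cecr2, a bromodomain protein of chromatin remodelling, rose by 8.60 (limma adjusted p = 0.0336), with 3.60, 1.94 and 3.67 in anti-DLL4 samples and -2.76 and -8.29 in isotype samples. The isotype arrays lay far apart here, and 1 of the 2 measured it above background. Rpl3l, a muscle form of a ribosomal protein, rose by 6.05 (limma adjusted p = 0.037). Of the others, 3 carry clone or accession names only, among them 4833419E13Rik, which was at least 27.5-fold higher.

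Among the genes that fell were 2 of T-cell and NK-cell signalling. Pdcd1, the inhibitory receptor PD-1, was at -0.89, 2.05 and 0.10 in anti-DLL4 samples, against 4.92 and 4.77 in isotype samples (difference -4.41 ± 0.77 (SE), limma adjusted p = 0.0444). Sh2d1a, the adaptor SAP of SLAM-family receptors, was at -1.24, -2.86 and -2.29 in anti-DLL4 samples, against 2.12 and 2.64 in isotype samples (difference -4.49 ± 0.69 (SE), limma adjusted p = 0.0315). All 3 Sh2d1a probes were lower. In both genes the isotype arrays lay close together and the anti-DLL4 arrays below them.

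St6galnac5, a sialyltransferase, was not well above background on any anti-DLL4 array and was at least 21.3-fold lower in anti-DLL4 samples (limma adjusted p = 0.00812). Cuzd1 was likewise at least 11.9-fold lower. Both are bounds of the main processing. Over the alternative settings the differences were as small as -1.44 for St6galnac5 and -0.86 for Cuzd1. Smarcd3, a subunit of the BAF chromatin remodelling complex, fell by 6.02 and Pgk2, the phosphoglycerate kinase of the testis, by 5.70, each measured above background on 1 of the 3 anti-DLL4 arrays. Slc16a5, a monocarboxylate transporter, fell by 5.23 and Robo4, a receptor of endothelium and of some blood progenitors, by 5.48. The other 4 carry clone or accession names only. The calls depended on single arrays: without isotype replicate 2 the counts were 0 higher and 0 lower, without isotype replicate 1 they were 5 and 1, without anti-DLL4 replicate 1 they were 3 and 6, without anti-DLL4 replicate 3 they were 3 and 1, and without anti-DLL4 replicate 2 they were 14 and 11. They were 0 and 0 when only the 5 DN1 arrays set the spread, and 3 and 1 where the slide was blocked on.

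**Figure D4:**
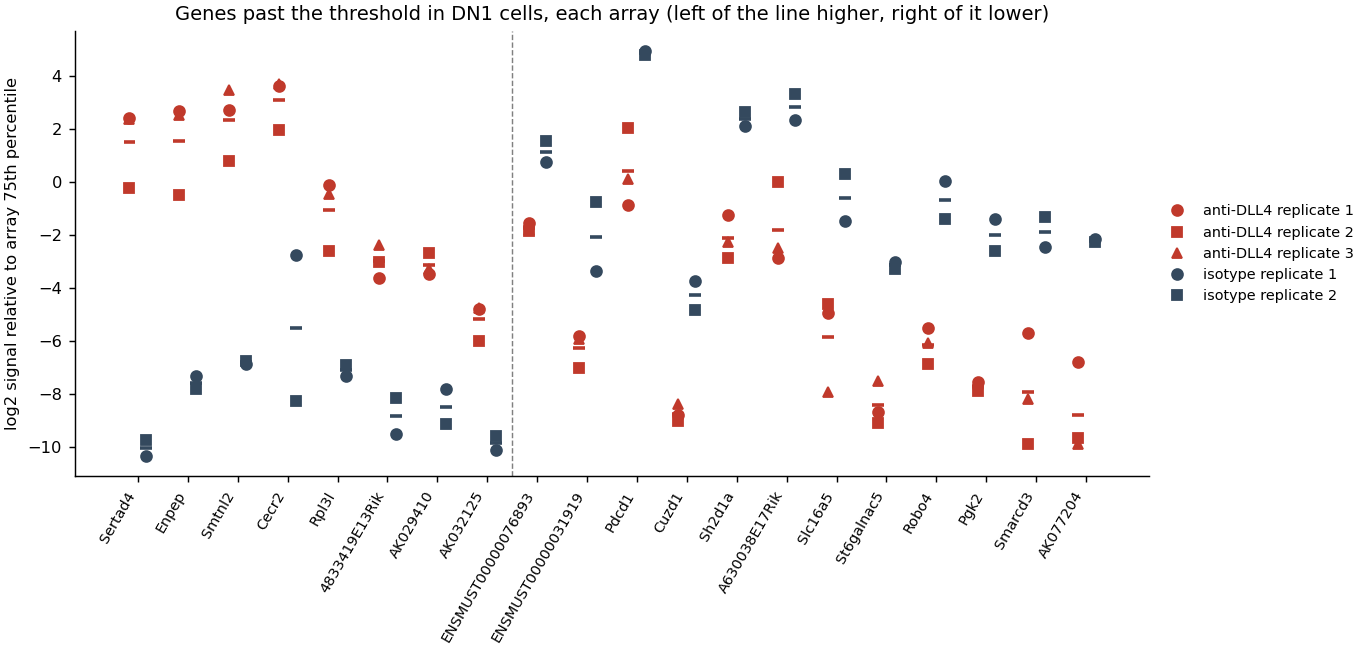
Log2 signal relative to the 75th percentile of each array (vertical axis) for 20 of the 21 genes past the threshold, 8 higher to the left of the dashed line and 12 lower to its right. Each point is 1 array and each bar a group's mean; the groups overlap for none of the 20 genes, and many of the lower values are below the level that the arrays measured well above background.

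Arrays sat on 6 slides, and 2 slides held 1 array of each DN1 group. On them the difference for Vpreb1 was 5.15 and 6.90, for Igll1 3.83 and 7.29, for Tcf7 -1.50 and -3.90, for Cd247 -1.71 and -3.33 and for Mpo -5.12 and -6.80, without a test since each is 1 array against 1. The groups did not overlap for any of the 5 genes, so the direction within a slide was fixed in advance. The values therefore give sizes only.

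The antibody effect was then set against that in DN cells and in total thymocytes, 2 populations that contain DN1 cells. In DN cells Vpreb1 rose by 6.92 (limma adjusted p = 0.00429), Igll1 by 8.24 (limma adjusted p = 0.00967) and Vpreb3 by 7.34 (limma adjusted p = 0.00216), and Tcf7 fell by 2.07 (limma adjusted p = 0.0158). Of all genes tested in DN cells, 2.74% were called higher and 1.56% lower. Each is relative to the median gene of that population, which lay at -0.67, while p-values are for the difference before that median was subtracted. The effect in DN1 cells minus that in DN cells was -0.42 ± 1.63 (SE) for Vpreb1, -2.09 ± 2.25 for Igll1, -1.93 ± 1.56 for Vpreb3 and -0.84 ± 0.88 for Tcf7, none past the threshold, and these standard errors leave room for large differences. For Cd247 it was -2.13 ± 0.89 (limma adjusted p = 0.471), and for Mpo -5.15 ± 1.80 (limma adjusted p = 0.357). These differences of effects are also relative to their own median gene, which lay at 0.644, and their p-values are for values before its subtraction. Among the genes called in DN1 cells, Smtnl2 and Cecr2 also rose in DN cells, by 9.04 and 9.94, each measured above background on 1 of the 3 isotype DN arrays. Sertad4 and Enpep, not well above background on any isotype DN array, were at least 80.3-fold and 56.3-fold higher in anti-DLL4 DN cells. Pdcd1 and Sh2d1a differed there by -1.02 and -0.997 and did not pass (limma adjusted p = 0.122 and 0.104).

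Genes of antigen presentation, B cells and NK cells were among those whose effects differed between populations. The difference between the effects in DN1 and DN cells passed the threshold for 48 of 22679 genes (0.212%), 16 higher (0.0705%) and 32 lower (0.141%) in DN1 cells. Of the 10 MHC class II genes, 4 were among the lower ones. H2-Aa, a chain of the class II molecule that presents antigen, was at 4.33 in anti-DLL4 DN1 cells and 4.62 in isotype DN1 cells, against 4.29 in anti-DLL4 DN cells and -1.16 in isotype DN cells. Its effect in DN1 cells minus that in DN cells was -6.39 ± 0.75 (SE, limma adjusted p = 0.0138). The level in DN1 cells was thus close to that of anti-DLL4 DN cells under either antibody, and isotype DN cells stood apart. Before scaling, the 75th percentile of signal was 260.2, 337.9 and 675.5 on the isotype DN arrays. It was 741.3 to 1076.8 on the anti-DLL4 DN arrays and 977.7 to 3641.7 on the DN1 arrays. Isotype DN cells also had the largest median SD of a gene, 1.017. No DN array was left out in the alternative settings, and the part of array brightness was not tested. The B cell genes Fcrla and Fcmr, the dendritic cell gene Clec10a and the cytotoxic gene Gzmb were also among the 32.

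The medians of whole lists showed the same contrast between populations. That of the B cell list was 0.66 in DN1 cells, with 0 of 20 called, against 4.65 in DN cells, with 17 of 20 called higher, and 3.59 in thymocytes, with 12 of 20. That of the MHC class II list was -0.29 in DN1 cells, against 4.58 in DN cells, with 7 of 10 called higher, and 2.27 in thymocytes, with 3 of 10. That of the NK and innate lymphoid list was -0.69 in DN1 cells, against 3.54 in DN cells, with 10 of 17 called higher, and 2.98 in thymocytes, with 6 of 17. The B-cell precursor list had medians of 2.27, 2.94 and 2.72 in the 3 populations, in that order, with 0, 5 and 4 of 12 members called higher. In thymocytes 1.12% of genes tested were called higher.

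Against thymocytes, the difference of effects passed the threshold for 27 of 22610 genes (0.119%), 6 higher (0.0265%) and 21 lower (0.0929%) in DN1 cells. NK-cell receptor genes stood at the head: Klra1, Klra16, Klra10 and Klre1 had differences of effects, DN1 cells minus thymocytes, of -8.03 to -5.75 (limma adjusted p = 0.0123 each). The Klra genes are close copies of one another, and probes may bind RNA of several. For Mpo this difference was -6.55 ± 1.75 (SE, limma adjusted p = 0.308), and in thymocytes Mpo itself differed by 0.19. The median gene lay at 0.455 for this difference of effects and at -0.474 in thymocytes, and p-values are again for values before its subtraction. The 48 and 27 calls were 0 and 1 where the slide was blocked on. Without isotype DN1 replicate 2 they were 3 and 0, without isotype DN1 replicate 1 they were 2 and 1, without anti-DLL4 DN1 replicate 1 they were 4 and 19, and without anti-DLL4 DN1 replicate 3 they were 121 and 10.

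**Figure D5:**
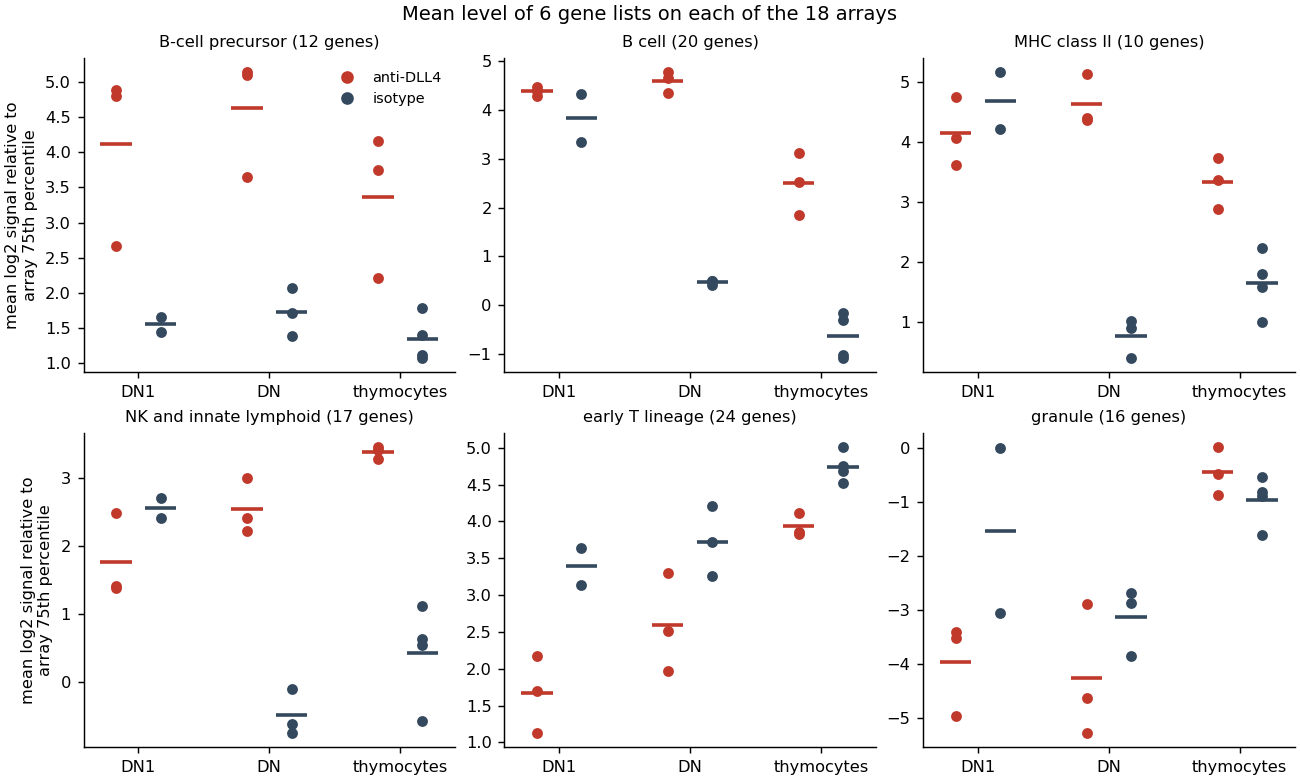
Mean log2 signal relative to the 75th percentile of each array (vertical axis, a scale of its own in each panel) over the members of 6 gene lists, on each of the 18 arrays (points) with the mean of each group (bars), for DN1 cells, DN cells and thymocytes, anti-DLL4 left of isotype. B cell and MHC class II genes are near the same level under both antibodies in DN1 cells and far apart in DN cells, while B-cell precursor genes are higher on each anti-DLL4 array than on any isotype array of the same population.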

How the data were processed

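Single-colour Agilent arrays were hybridised with RNA amplified in 2 rounds, per the labels' protocols. The deposited intensity values are processed signals of Agilent Feature Extraction 9.5.3.1, per the file headers (9.5 per the submitters' processing notes), which background-subtracts each spot. A deposited table of the same arrays holds a linear ratio of each probe's signal to a centre of that probe. The centre is not stated in the sources used here. Its columns had medians of 0.638 to 1.423, and 69.7% to 70.7% of probes, after log2, lay within 0.05 of centred values computed from the scanner files. It served as an alternative.

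Each array's 75th percentile of log2 signal over non-control spots was subtracted, outlier spots were left out, spots of a probe were averaged, and the probe brightest over the 18 arrays stood for its gene. Of 43426 probes, 26215 were named by accession in RefSeq's table (GRCm38.p6), 7270 by current symbol, 3073 by older symbol, and 6868 kept the file's name. limma 3.58.1 in R 4.3.3 fitted 6 group means over 18 arrays. Genes that 2 or more of the 5 DN1 arrays measured well above background, 21957 in all, entered the Benjamini-Hochberg adjustment, with a threshold of 0.05. On simulated data for the DN1 comparison (21754 genes), 29% of changes of 3 log2 units and 79% of changes of 6 were called. So were 6 unchanged genes. The simulated noise was independent between genes and arrays, and each gene had the same spread in all groups. It held no deviation of a whole array, so these figures may not hold for the measured arrays.

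A fold for a gene whose probe is not well above background in 1 group is a bound against the dimmest signal well above background on each array. Such a bound holds for that probe in the main processing, and does not allow for the standard error. Named were the 5 markers, up to 12 called genes per direction with a gene symbol, no overlap between groups and a signal well above background on every array of the brighter group, the called members or else the 2 brightest of each list, a set of Notch and lineage genes, and up to 6 genes leading each difference of effects. Other list members were chosen after their values were seen. The members and the 26 lists were chosen with earlier results of these data known. An exact permutation test of 3 against 2 arrays cannot go below 0.2, so none was used. The study's description gives 3 thymocyte isotype arrays where the labels give 4; the labels were followed. Results of some genes are not reported here.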

Additional observations from a re-analysis of the deposited data

Results flagged for a closer look

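The antibody effect differed between populations, by a test of the difference itself in limma, for the genes given here. Values are log2, DN1 effect minus the other population's effect, relative to the median gene, with standard errors in brackets. Adjusted p-values are for the difference before that median was subtracted. Against DN cells the difference was -7.12 (0.84) for H2-DMb2, -6.39 (0.75) for H2-Aa, -5.33 (0.75) for H2-Eb1 and -5.20 (0.72) for H2-Ab1, all of antigen presentation, and -5.18 (0.69) for the protease gene Ctss. Mpped2 went the other way, at 10.36 (1.49). Its means were -0.57 in anti-DLL4 and -4.05 in isotype DN1 cells, against -7.89 in anti-DLL4 and -0.37 in isotype DN cells. The isotype DN1 arrays lay far apart, at -1.39 and -6.70, and the DN1 groups overlapped. Over the alternative settings its difference in DN1 cells was as small as 0.9. Mpped2 was not well above background on any anti-DLL4 DN array, nor H2-DMb2 on any isotype DN array. Their effects in DN cells are therefore bounds, at least 44.6-fold lower and at least 21.0-fold higher in anti-DLL4 samples, and the fitted differences are not exact sizes.

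Against thymocytes the difference was -6.70 (0.85) for Klra1, -5.75 (0.75) for Klra16, -8.03 (1.07) for Klre1 and -7.58 (1.01) for Klra10, all NK receptor genes. It was -10.83 (1.45) for B3galnt1 and -9.39 (1.30) for C2cd4b. Adjusted p-values were 0.0123 to 0.0127 against thymocytes and 0.0138 to 0.0376 against DN cells. B3galnt1 averaged -9.50 in anti-DLL4 and -4.65 in isotype DN1 cells, against -3.37 in anti-DLL4 and -8.90 in isotype thymocytes. It was not well above background on any anti-DLL4 DN1 array or any isotype thymocyte array. It was thus at least 9.22-fold lower in anti-DLL4 DN1 cells and at least 8.94-fold higher in anti-DLL4 thymocytes, and its fitted difference is not an exact size. Over the alternative settings its difference in DN1 cells was as small as -1.08.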

How the results depend on the processing

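Main counts were 9 higher and 12 lower genes in DN1 cells, and 48 and 27 differences of effects against DN cells and thymocytes. With quantile normalization 14 were higher, with 91 and 47 differences; centred on probes well above background on all arrays, 17 were higher, with 44 differences against thymocytes. With normexp background correction 0 were higher and 0 lower, with 255 and 272 at an unadjusted p under 0.05 in limma, and the differences numbered 9 and 6; that setting placed the median gene at -0.16. Without a filter on dim probes there were 31 differences against DN cells, and with a stricter filter 25. Blocking on the slide gave 3 higher and 1 lower, with 0 and 1 differences (3966 and 1576 at an unadjusted p under 0.05). With only the 5 DN1 arrays in limma 0 were higher and 0 lower, with 566 and 425 at an unadjusted p under 0.05. With a replicate block 0 were higher and 0 lower, with 774 and 330 at an unadjusted p under 0.05, and 0 and 0 differences; same-numbered DN1 arrays deviated from their group means with correlations of 0.33 and 0.01, so the numbers were not taken to pair samples. Leaving out each DN1 array gave 0 to 14 higher, 0 to 11 lower, 2 to 121 differences against DN cells and 0 to 32 against thymocytes. Without isotype replicate 2, 294 and 360 were at an unadjusted p under 0.05. Of 135 genes considered for naming, 109 kept their sign in every setting and 26 did not. In 2 of the 26 the difference as reported exceeded its standard error: Ebf1 with the mean of all probes, at -1.56, and Hba-a1 without isotype replicate 2, at -0.49 (up to 4.88 without another array). Over the tested settings, values of called genes lost the call 103 times, and other genes gained one 9 times. The causes were not tested.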

Other observations

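Anti-DLL4 replicate 2 had the lowest mean over the 12 B-cell precursor genes among the anti-DLL4 samples of each population. The means were 4.89, 2.67 and 4.80 in DN1 cells, 5.11, 3.65 and 5.14 in DN cells and 3.74, 2.21 and 4.16 in thymocytes, for replicates 1, 2 and 3. The labels do not say whether equal numbers mark the same animal. In DN1 cells the same replicate had the highest mean over the 24 early T lineage genes, 2.17, against 1.69 and 1.13 on the other anti-DLL4 arrays. Replicate 2 was also the highest in anti-DLL4 DN cells, at 3.30 against 2.51 and 1.98, and in anti-DLL4 thymocytes, at 4.11 against 3.83 and 3.85.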
